A study of Mus musculus with 18 samples.

Results

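The genes described here encode the machinery that docks, primes and fuses synaptic vesicles, together with close relatives of those proteins. They were chosen by symbol as the numbered synaptotagmins (Syt), syntaxins (Stx), syntaxin-binding proteins (Stxbp), vesicle-associated membrane proteins (Vamp), synapsins (Syn), complexins (Cplx), Rims, Unc13 and Sv2 genes and 5 Snap genes (Snap23, Snap25, Snap29, Snap47 and Snap91). The deposited table held 67 of them among its 17198 genes. RNA came from cultured neurons of the dorsal root ganglia (DRG), which lie beside the spinal cord and hold the cell bodies of sensory axons. The mice were wild type (WT) or carried 1 tm1a allele of Dynlrb1 (heterozygous, HET). Dynlrb1 is a dynein light chain gene, dynein being the motor of transport towards the cell body, and tm1a alleles are knockout-first insertions. Each genotype was sampled after 12, 24 and 48 h in culture with 3 biological replicates, so 6 groups made up 18 samples. The labels name no treatment and no strain, sex or age.

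Vesicle release is driven by SNARE proteins: a Vamp on the vesicle zips together with a syntaxin and a SNAP-25 type protein on the plasma membrane. Munc18 proteins (Stxbp genes) and Munc13 proteins (Unc13 genes) prepare the SNAREs, RIM proteins hold vesicles at the release site, complexins clamp the assembled complex, and synaptotagmins are the calcium sensors. Synapsins tether the reserve pool of vesicles and SV2 proteins are glycoproteins of the vesicle membrane. Many syntaxins and Vamps act instead in the Golgi, in endosomes or in lysosomes of every cell. In sensory neurons the release proteins are made in the cell body and shipped along the axon to terminals in the spinal cord.

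Dynlrb1 itself stood at 5229 to 6674 normalized counts in the 9 WT cultures and at 2716 to 4087 in the 9 HET cultures, without overlap, the direction that the labels imply. All 13 DRG neuron markers were in the table and none was at 0, with a summed level of 6107 to 8745 FPKM (fragments scaled to transcript length and library size). The markers of central neurons and astrocytes in the table summed to 0.0352 to 0.278 FPKM. Every culture also held RNA of Schwann and satellite glia (504 to 715 FPKM over 10 markers). The columns had been scaled and adjusted before deposit, so sequencing depth is unknown. In bulk cultures, fewer cells of a type and less RNA per cell cannot be told apart.

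Levels of different genes were compared per transcript length, as the mean FPKM of the 18 cultures. Syt4, a synaptotagmin that does not sense calcium in the usual way and sits on Golgi-derived and peptide vesicles, was the most abundant at 478 FPKM (305 to 623 in single cultures). Snap25, the plasma membrane SNARE of neurons, followed at 448 FPKM (288 to 635), so the ranges of these genes overlapped almost wholly. Cplx1, the main complexin of many neurons, stood at 241 FPKM and Syt11, another synaptotagmin that does not bind calcium, at 215 FPKM. The classical fast calcium sensors were lower, Syt1 at 52.8 FPKM and Syt2 at 30.9 FPKM. Their ranges, 27 to 85.5 FPKM for Syt1 and 16.9 to 56.2 FPKM for Syt2, overlapped each other but lay under every culture's Syt4.

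Sv2c led the SV2 genes at 120 FPKM, against 31.6 for Sv2b and 8.14 for Sv2a. The vesicle SNAREs Vamp2 (103 FPKM) and Vamp1 (85) lay close together, and the plasma membrane syntaxin Stx1a stood at 31 FPKM. Rims3, a short RIM protein that lacks most of the scaffold domains, exceeded the scaffold gene Rims1, 79.6 against 25 FPKM. At the bottom, Syt8 (0.0736 FPKM) and Cplx4, a complexin best known from the retina (0.0812 FPKM), were close to undetected.

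**Figure D1:**
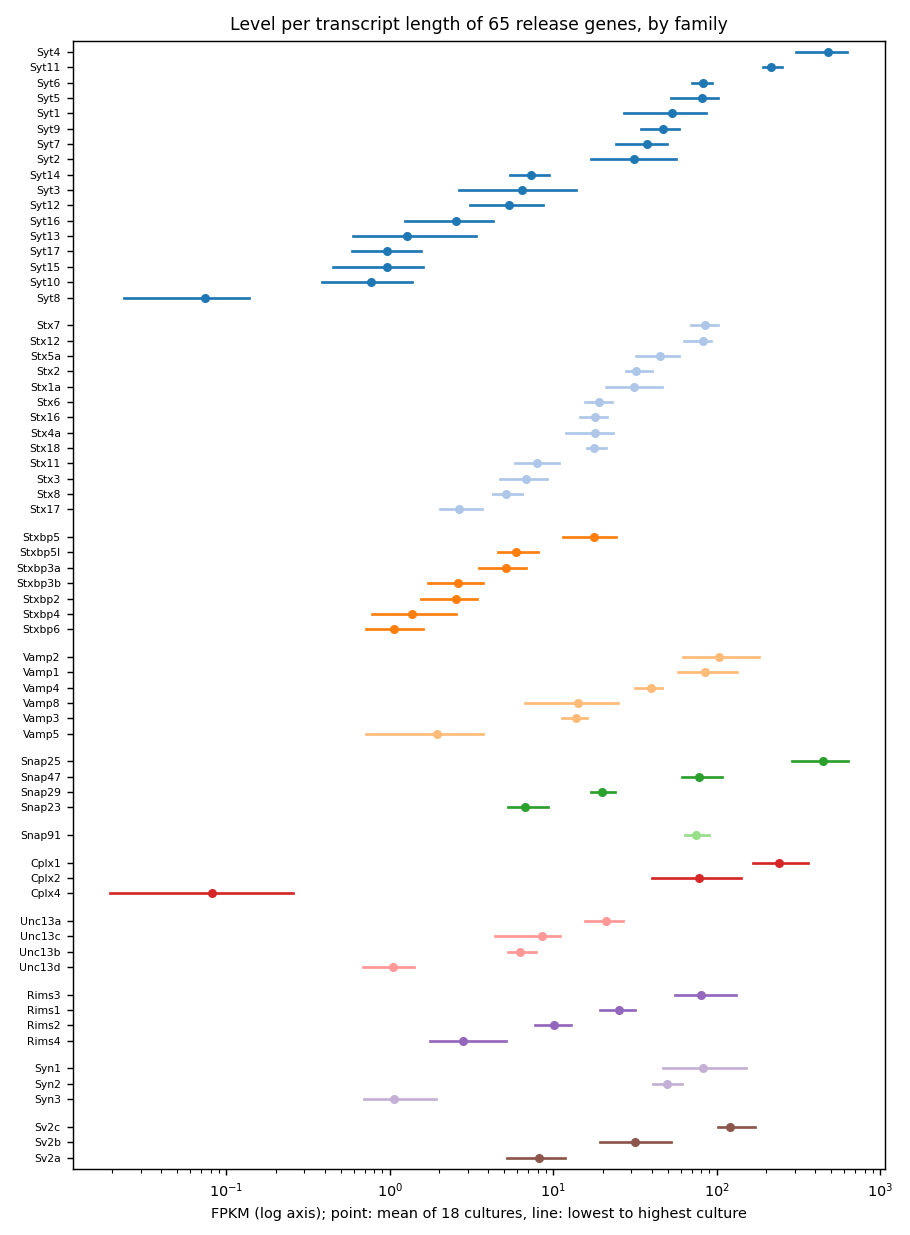
FPKM of 65 of the 67 genes on a log axis, grouped by family. Each point is the mean of 18 cultures and each line runs from the lowest to the highest culture. Syt4 (478) and Snap25 (448) lie farthest right and Syt8 (0.0736) farthest left.

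Most calls among these genes were between times in culture. Between 12 and 48 h in WT cultures 45 of the 67 passed the limma test (adjusted p under 0.05), 18 higher and 27 lower, and 22 did not. Among all genes tested 47.1% passed, 30% higher and 17.1% lower, so the members' share was above that of all genes and their lower calls outnumbered the higher ones, where the reverse held for all genes. The sets of members that follow were chosen with earlier results of these data known. A core set of 29 genes with a role in release at the nerve terminal had 4 higher and 19 lower, with a median log2 change of -0.50. By contrast, 24 genes of general membrane traffic had 10 higher and 2 lower, with a median of 0.29, and the median of all genes was 0.11. The remaining 14, mostly other synaptotagmins, had 4 higher and 6 lower with a median of -0.10. With the plain adjusted columns, which lack the authors' per-sample scaling, 14 of the 67 members were higher and 28 lower. The median log2 change of all genes was 0.01 in those columns, so the number of higher calls depended on the scaling. The share of all genes called in those columns is not given here, so these counts describe the members alone.

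In the 18 refits that each left out a culture, the median of the core genes ran from -0.52 to -0.37 and that of the general genes from 0.24 to 0.31. Only the refits without a WT 12 h or WT 48 h culture can change these medians. The counts depended most on WT 48 h replicate 2, without which 28 members passed and 11 core genes were lower and 2 higher, with a core median of -0.37. Without WT 12 h replicate 2 the core counts were 17 lower and 2 higher. The DRG neuron markers moved in part in the same direction, 7 of 13 lower and 3 higher with a median of -0.45, although their summed FPKM was 6336 to 7818 at 12 h and 6552 to 7058 at 48 h. Their part in the result was not tested.

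**Figure D2:**
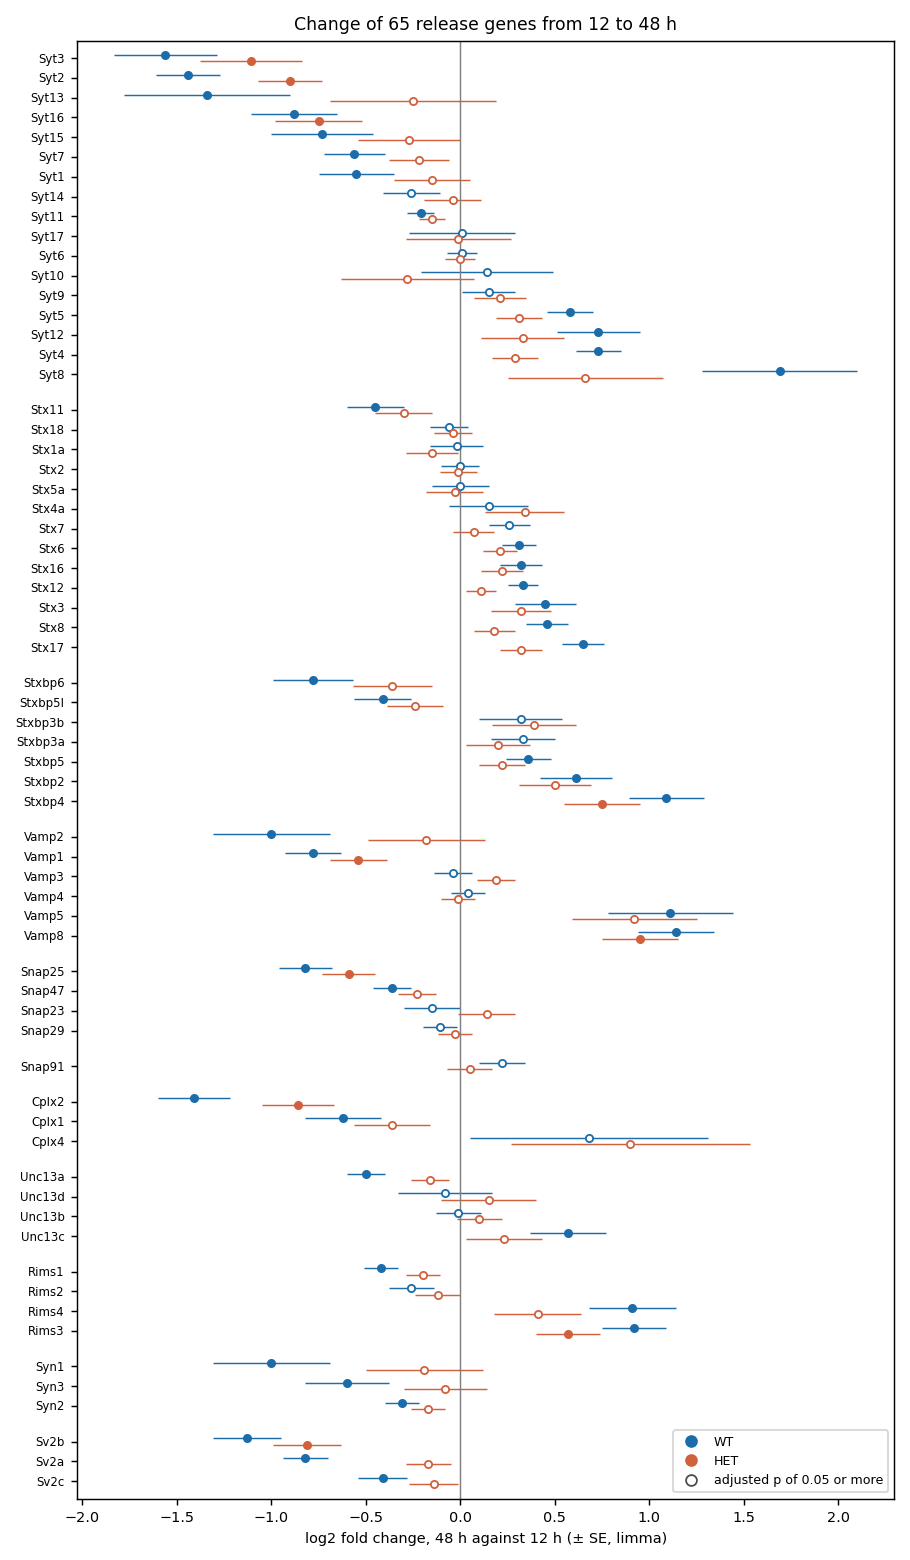
Log2 fold change from 12 to 48 h of 65 of the 67 genes in WT (blue) and HET (orange) cultures, with the standard error from limma; filled points passed the adjusted threshold. Syt3 (-1.56 in WT) and Syt2 (-1.44) lie farthest left and Syt8 (1.69) farthest right, and filled points are more frequent in WT (43) than in HET (10).

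Among the calcium sensors, Syt2, which drives fast release in sensory and motor terminals, had 7897, 6775 and 5587 normalized counts in the WT cultures at 12 h, 4538, 4592 and 4192 at 24 h and 2525, 2377 and 2502 at 48 h. Every 48 h culture lay below every earlier one. The log2 change at 48 h was -1.44 ± 0.17 (SE, limma, adjusted p = 3.06e-05). Syt1, the fast sensor of most forebrain synapses, had 9453, 11460 and 16214 at 12 h against 8748, 6167 and 10298 at 48 h, and here the groups overlapped (log2 change -0.55 ± 0.20, limma adjusted p = 0.0332). Syt7, a slow sensor of high calcium affinity, fell as well, by 0.56 on the log2 scale, while Syt9 was at 0.15 ± 0.14 and did not pass.

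The other synaptotagmins went both ways. Syt3, a calcium sensor of high affinity, dropped from 1420, 1005 and 601 normalized counts at 12 h to 304, 339 and 325 at 48 h, the lowest 12 h culture still well above the highest 48 h one. Its log2 change of -1.56 ± 0.27 had the largest size among lower members (limma adjusted p = 3.01e-04). Syt13 had 526, 316 and 156 counts at 12 h and 129, 93.1 and 132 at 48 h. The groups of Syt13 were only just apart, because replicate 5 at 12 h was low, and its call (-1.34 ± 0.44, limma adjusted p = 0.0193) was lost without WT 12 h replicate 1 (0.109), WT 12 h replicate 2 (0.0523) or WT 48 h replicate 2 (0.0774). Syt16 (-0.88), Syt15 (-0.73) and Syt11 (-0.21) also fell.

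Syt4 went up from a level that was already the highest of the family. The WT cultures had 49398, 58255 and 65188 normalized counts of Syt4 at 12 h, 80463, 79499 and 87997 at 24 h and 85265, 100805 and 99071 at 48 h. Both later groups lay above all 12 h cultures (48 h log2 change 0.73 ± 0.12, limma adjusted p = 1.76e-04). As a share of the summed FPKM of the 17 synaptotagmins, Syt4 went from 36.9% ± 1.97 (SD, n = 3) to 52.3% ± 2.79, and Syt2 from 5.08% ± 1.3 to 1.57% ± 0.116. Syt5 (0.58) and Syt12 (0.73) rose too. Syt8 rose from 1.88, 1.48 and 1.85 to 8.56, 8.22 and 6.76 counts (log2 change 1.69 ± 0.41, limma adjusted p = 0.00325), a separation at levels so low that its size depends on the added count of 1.

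Several SNARE genes of the terminal fell. Snap25 had 53418, 53445 and 40166 normalized counts at 12 h in WT and 30090, 25311 and 27227 at 48 h, without overlap, a log2 change of -0.82 ± 0.14 (limma adjusted p = 2.24e-04). Vamp2 had 10604, 15075 and 15535 at 12 h, 8534, 16253 and 6406 at 24 h and 8805, 5587 and 6294 at 48 h. The 24 h cultures of Vamp2 spread across the whole range, but the 12 and 48 h groups did not overlap (-1.0 ± 0.31, limma adjusted p = 0.014). Vamp1, the paralogue common in spinal cord and sensory neurons, fell by 0.78 on the log2 scale. Stx1a did not pass the test: its log2 change was -0.02 ± 0.14, with 2403, 2371 and 2163 counts at 12 h, 3052, 3309 and 3219 at 24 h and 1881, 2621 and 2390 at 48 h.

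Of the complexin genes, whose products clamp the SNAREs, Cplx2 had the largest drop. Cplx2 had 28726, 22913 and 18289 normalized counts in WT at 12 h, 16075, 17357 and 15427 at 24 h and 9391, 8217 and 8326 at 48 h, with no overlap between any of these groups (-1.41 ± 0.19 at 48 h, limma adjusted p = 4.88e-05). Its relative Cplx1 had 32585, 31666 and 19309 at 12 h and 21319, 16794 and 15216 at 48 h, with overlapping groups and a smaller change (-0.62 ± 0.20, limma adjusted p = 0.0173). Cplx1 thereby made up 82% ± 1.6 (SD, n = 3) of summed complexin FPKM at 48 h, against 72.6% ± 2.75 at 12 h.

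The priming and scaffold families were divided by isoform. Unc13a, the main priming factor of excitatory terminals, had 8420, 7668 and 8822 normalized counts at 12 h and 5654, 5112 and 6952 at 48 h, without overlap (-0.50 ± 0.10, limma adjusted p = 7.85e-04). Unc13c, best known from the cerebellum, rose by 0.57 with overlapping groups, and its share of the family's FPKM was 16.6% ± 4.54 (SD, n = 3) at 12 h and 27.4% ± 4.19 at 48 h. The scaffold gene Rims1 fell by 0.42. Rims3 had 2668, 2295 and 2695 counts at 12 h, 2653, 2765 and 2699 at 24 h and 4595, 5315 and 4594 at 48 h. Its 12 and 24 h cultures were alike and the 48 h cultures stood far above both (0.92 ± 0.17, limma adjusted p = 3.97e-04). Rims4, the other short RIM, rose by 0.91 from a low level.

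All 3 synapsins and all 3 SV2 genes were lower in WT at 48 h. Syn1 had 13369, 16674 and 18433 normalized counts at 12 h, 10231, 19801 and 7904 at 24 h and 9909, 7224 and 7132 at 48 h. The 24 h values of Syn1 were as scattered as those of Vamp2, with replicate 2 highest for both, while 12 and 48 h did not overlap (-1.0 ± 0.31, limma adjusted p = 0.0147). Sv2b had 11469, 10714 and 7843 at 12 h and 5028, 4297 and 4235 at 48 h, without overlap (-1.13 ± 0.18, limma adjusted p = 1.45e-04). Sv2a, the SV2 form bound by the drug levetiracetam, fell by 0.82, and the abundant Sv2c fell by 0.41 from 21810, 22905 and 30176 to 18530, 18228 and 18934. Snap91, a clathrin adaptor that sorts Vamp proteins back into vesicles, was at 0.22 ± 0.12 and did not pass.

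**Figure D3:**
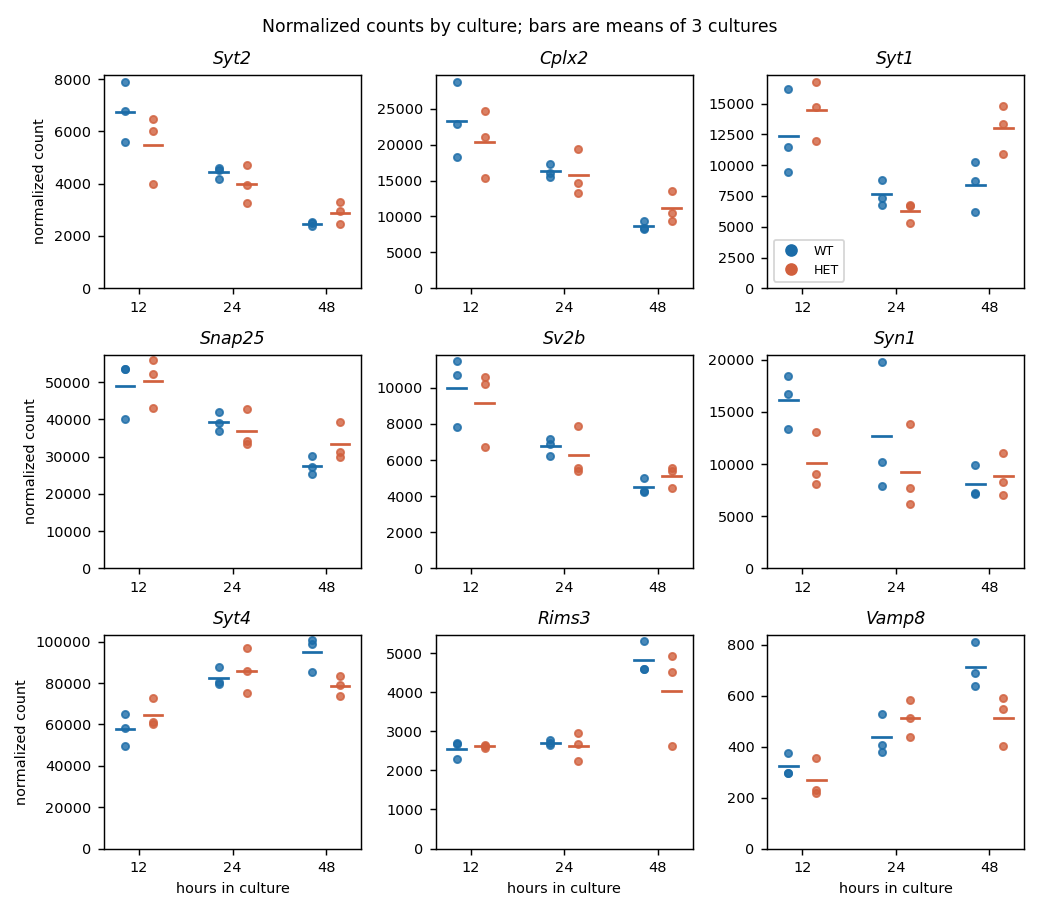
Normalized counts of 9 genes in each culture at 12, 24 and 48 h, with WT in blue and HET in orange; bars are means of 3 cultures and every axis starts at 0. In the WT cultures Cplx2 goes from 18289 or more at 12 h to 9391 or less at 48 h, while Syt4 and Rims3 go up.

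The general membrane traffic genes that rose were led by the neighbours Vamp8 and Vamp5. Vamp8, a SNARE of late endosomes, lysosomes and secretory granules, had 373, 298 and 295 normalized counts in WT at 12 h, 405, 377 and 527 at 24 h and 690, 809 and 637 at 48 h. All 48 h cultures exceeded all others (1.14 ± 0.20, limma adjusted p = 2.80e-04). Vamp5, a relative first described in muscle, had 117, 95.3 and 104 at 12 h and 228, 253 and 204 at 48 h, likewise apart (1.11 ± 0.33, limma adjusted p = 0.0118). Each of these rows carries 2 Ensembl identifiers in the table. Stxbp4, an insulin-responsive binding partner of Stx4, had 254, 202 and 316 at 12 h and 503, 636 and 488 at 48 h, without overlap (1.09 ± 0.20, limma adjusted p = 4.62e-04).

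Endosomal, lysosomal and Golgi syntaxins rose by less: Stx17, the syntaxin of autophagosomes, by 0.65, Stx8 by 0.46, Stx12 by 0.33, Stx16 by 0.32 and Stx6 by 0.31 on the log2 scale. Stxbp2, or Munc18-2, which serves secretion in blood and epithelial cells, rose by 0.61. Stx7, the most abundant syntaxin, had 7504, 8304 and 7695 counts at 12 h and 8774, 9249 and 10164 at 48 h, which did not overlap, yet it missed the threshold (0.26 ± 0.11, limma adjusted p = 0.0709). Stx11 (-0.45) and Snap47 (-0.36) were the 2 general members that fell.

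Markers of other cell types moved over the same time. The 6 fibroblast markers summed to 39.9 to 88.2 FPKM in WT at 12 h and 107 to 154 at 48 h, and 4 of 6 passed the test as higher. The 4 macrophage markers in the table (of 5 listed) summed to 13.5 to 20.4 FPKM at 12 h and 35.7 to 73.7 at 48 h, with 1 of 4 called higher. The 4 endothelial markers went the other way, from 50.9 to 66.9 FPKM at 12 h to 23 to 32.9 at 48 h. The 3 blood markers in the table (of 5 listed) had the largest change of these lists: they summed to 5.58 to 219 FPKM at 12 h and 3.65 to 4.77 at 48 h, and all 3 were called lower (median log2 change -4.28). The 10 Schwann cell and satellite glia markers summed to 561 to 715 FPKM at 12 h and 522 to 530 at 48 h, with 1 called higher and 3 lower. None of these markers was at 0 in any culture, and their part in the changes of the release genes was not tested.

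Promoter sequences were examined because members moved in opposite directions over time. RefSeq windows on the mouse build GRCm38.p6 (the mm10 build that the submitters' processing notes name) were found for 49 of the 67 genes, with 64 start sites, and the 250 bases before each start were searched on both strands. The GGGCGG box of the SP1 factor was in 60.9% of the 64 windows, against 32.7% of the 32851 windows of 27025 genes. The median GC content was 60.6% in the members' windows against 52.4%. This background goes beyond the 17198 genes of the deposited table, so it includes genes that were not measured here. The box was in 61.5% of the windows of genes lower at 48 h in WT (26 windows) and in 52.9% of those of genes higher (17 windows). The TATA box TATAAA was in 6.25% of the windows (12.4% of all), the AP-1 site TGANTCA in 3.12% (6.75%) and the cAMP response site TGACGTCA in 1.56% (1.55%). These matches are a description of the letters in the window and not of binding.

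The following 4 windows show the range, with matches to these motifs in capitals. Vamp8 (chr6:72390668-72390917, minus strand) and Vamp5 (chr6:72380469-72380718, minus strand) are neighbours that rose together. Their windows differ, with a GC content of 43.6% and no match for Vamp8, and 66% with a pair of GGGCGG boxes, read on the opposite strand and sharing 1 base, for Vamp5. Rims3 (chr4:120854549-120854798, plus strand), which rose, has 3 such boxes, and the first start of Sv2b (chr7:75309263-75309512, minus strand), which fell, has a TATA box read on the opposite strand and none of the others.
Vamp8: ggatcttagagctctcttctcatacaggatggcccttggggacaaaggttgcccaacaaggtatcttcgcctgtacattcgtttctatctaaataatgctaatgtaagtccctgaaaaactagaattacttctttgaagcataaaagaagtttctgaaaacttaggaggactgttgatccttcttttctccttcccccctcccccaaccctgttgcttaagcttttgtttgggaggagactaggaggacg
Vamp5: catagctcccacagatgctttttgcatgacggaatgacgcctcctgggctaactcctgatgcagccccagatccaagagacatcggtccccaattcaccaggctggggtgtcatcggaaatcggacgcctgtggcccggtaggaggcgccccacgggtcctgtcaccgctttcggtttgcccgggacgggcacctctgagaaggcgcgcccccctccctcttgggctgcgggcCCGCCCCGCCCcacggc
Rims3: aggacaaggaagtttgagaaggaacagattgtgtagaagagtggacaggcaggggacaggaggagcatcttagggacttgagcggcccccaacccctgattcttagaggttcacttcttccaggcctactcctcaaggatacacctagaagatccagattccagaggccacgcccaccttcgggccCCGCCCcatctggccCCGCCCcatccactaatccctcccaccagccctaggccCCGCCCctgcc
Sv2b: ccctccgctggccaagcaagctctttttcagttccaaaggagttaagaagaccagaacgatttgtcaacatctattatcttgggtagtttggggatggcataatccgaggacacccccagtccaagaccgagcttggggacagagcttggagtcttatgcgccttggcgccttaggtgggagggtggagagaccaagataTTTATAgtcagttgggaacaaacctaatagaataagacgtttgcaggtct

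After 24 h, the changes were fewer. In WT cultures 3 of the 67 genes passed, 1 higher and 2 lower, against 3.62% of all genes (2.96% higher and 0.657% lower). Syt4 was the one that rose (0.53 ± 0.12, limma adjusted p = 0.0273), from the values given above. Sv2a fell from 1765, 1683 and 1920 normalized counts at 12 h to 1105, 1048 and 1113 at 24 h, a wide gap (-0.72 ± 0.12, limma adjusted p = 0.0212). Unc13a fell from 8420, 7668 and 8822 to 6337, 6058 and 5786, also without overlap (-0.45 ± 0.10, limma adjusted p = 0.0254). None of the 3 calls held without WT 12 h replicate 2 or without any one of the WT 24 h cultures, and 1 held without WT 12 h replicate 1. Without HET 48 h replicate 3, which shares the estimate of the spread, 6 passed.

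In HET cultures 17 of the 67 passed between 12 and 24 h, 7 higher and 10 lower, against 18.9% of all genes (13.1% higher and 5.76% lower). The 3 genes called in WT were among them with the same direction, which is 100% of the WT calls and 17.6% of the HET calls. The overlap among all genes is not given here. Syt1 had 11955, 16792 and 14742 normalized counts in HET at 12 h, 5294, 6712 and 6805 at 24 h and 14845, 13341 and 10947 at 48 h. Its 24 h cultures lay far under both other times (-1.20 ± 0.20 at 24 h, limma adjusted p = 0.00177), and at 48 h the log2 change against 12 h was only -0.15 ± 0.20. In WT the 24 h change of Syt1 was -0.67 ± 0.20, which missed the threshold (limma adjusted p = 0.0733).

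Other HET genes lower at 24 h included the vesicle protein Sv2a, with 1546, 1672 and 1533 counts at 12 h and 941, 1228 and 951 at 24 h. These groups did not overlap (-0.62 ± 0.12, limma adjusted p = 0.00357). Unc13a went from 8556, 8463 and 7743 to 5906, 5831 and 5238, again apart (-0.55 ± 0.10, limma adjusted p = 0.00256). Rims1 went from 2602, 2883 and 2549 to 1910, 2226 and 1870 (-0.42 ± 0.09, limma adjusted p = 0.00504) and Snap25 from 52281, 55840 and 43079 to 34233, 42743 and 33449 (-0.45 ± 0.14, limma adjusted p = 0.0304). Snap25 was apart by the narrowest margin of these genes.

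Among the HET genes that rose at 24 h, Vamp8 went from 219, 230 and 354 normalized counts to 439, 511 and 582 without overlap (0.96 ± 0.20, limma adjusted p = 0.00434). Stxbp5, or tomosyn, an inhibitor of SNARE assembly, went from 6173, 4320 and 5357 to 9101, 7269 and 7329 (0.59 ± 0.12, limma adjusted p = 0.0036). Stx1a, the plasma membrane syntaxin, went from 2563, 2349 and 2282 to 3985, 3168 and 3628 (0.58 ± 0.14, limma adjusted p = 0.011). All these groups were apart, but by 48 h Stx1a was back at 1798, 2009 and 2798. Stx3 (0.49) and Stx5a (0.49), a Golgi syntaxin, passed only narrowly, with limma adjusted p of 0.0402 and 0.0368. With the plain adjusted columns, which lack the authors' per-sample scaling, 4 higher and 10 lower passed, so the share of higher calls depended on the scaling. The share of all genes called in those columns is not given here. The HET count was 6 without HET 12 h replicate 2, 9 without HET 24 h replicate 5 and 10 without HET 12 h replicate 1.

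From 12 to 48 h in HET cultures 10 of the 67 passed, 3 higher and 7 lower, against 14.2% of all genes (10.6% higher and 3.62% lower). All 10 were called in the same direction in WT, so they are 100% of the HET calls and 22.2% of the WT calls. The WT calls already covered 45 of the 67 members, and the overlap among all genes is not given here. Syt2 had 6481, 6025 and 3971 normalized counts at 12 h and 2440, 2938 and 3311 at 48 h, just apart (-0.90 ± 0.17, limma adjusted p = 0.0121). Cplx2 had 24648, 21073 and 15288 at 12 h and 9423, 10455 and 13563 at 48 h, also just apart (-0.86 ± 0.19, limma adjusted p = 0.0152). Sv2b had 10183, 10612 and 6715 at 12 h and 4468, 5375 and 5554 at 48 h (-0.81 ± 0.18, limma adjusted p = 0.0152). In all 3 genes replicate 5 was the lowest 12 h culture and replicate 3 the highest 48 h culture.

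Syt3 had 1007, 1024 and 582 counts in HET at 12 h and 271, 435 and 508 at 48 h (-1.11 ± 0.27, limma adjusted p = 0.0192), and Syt16 had 381, 482 and 364 against 194, 230 and 309 (-0.75 ± 0.23, limma adjusted p = 0.037). Both pairs of groups were separate. Snap25 (-0.59) and Vamp1 (-0.54) also fell. Vamp8 had 219, 230 and 354 at 12 h and 547, 590 and 403 at 48 h, without overlap (0.95 ± 0.20, limma adjusted p = 0.0134), and Stxbp4 had 231, 194 and 245 against 477, 426 and 259 (0.75 ± 0.20, limma adjusted p = 0.0256). HET 48 h replicate 3 was the culture nearest to the 12 h level for both. Rims3 passed as well (0.57), with HET 48 h replicate 3 at 2627 counts, within the 12 h range, and the other 48 h cultures at 4930 and 4528.

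The HET count at 48 h moved with the cultures fitted, from 0 to 14 when each was left out. It was 14 without HET 48 h replicate 3, 0 without HET 12 h replicate 2, without HET 48 h replicate 1 or without HET 48 h replicate 2, 5 without HET 12 h replicate 1, and 0 when only the 6 cultures compared were fitted. With the plain adjusted columns 2 were higher and 10 lower, and after quantile normalization 1 was higher and 7 lower. Shares of all genes are not given for these fits, so the counts do not show whether members moved more than other genes. The core release genes had 1 higher and 5 lower with a median of -0.17, the general traffic genes 2 higher and none lower with a median of 0.18, and the median of all genes was 0.10. In HET the fibroblast markers summed to 47.9 to 73.2 FPKM at 12 h and 87.4 to 155 at 48 h, and the macrophage markers to 11.2 to 16.8 and 21.2 to 31.4. The blood markers summed to 87.2 to 218 and 5.59 to 63.6, and the Schwann cell and satellite glia markers to 621 to 697 and 504 to 593. The DRG neuron markers summed to 7366 to 8745 FPKM at 12 h and 7117 to 7275 at 48 h, without overlap. Of these 13 markers, 1 was called higher and 3 lower, with a median log2 change of -0.10. The endothelial markers summed to 35.1 to 54.5 FPKM at 12 h and 27.9 to 41.3 at 48 h. The part of all these markers in the HET changes was not tested.

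Whether the 12 to 48 h change itself differed between genotypes was tested with the interaction of genotype and time, given as the HET change minus the WT change. No member passed in limma and none passed with the replicate number as a block; 0% of all genes passed. An unadjusted p under 0.05 was found for 5 of the 67 members and for 8.92% of all genes. Among the lowest p were those of Sv2a (0.66 ± 0.17, limma adjusted p = 0.548), with a smaller drop in HET, and Syt4 (-0.44 ± 0.17, limma adjusted p = 0.548), with a smaller rise. Of the 29 core genes 23 had a positive estimate, with a median of 0.24 against -0.01 for all genes. The larger number of calls in WT is therefore not shown to be a difference between genotypes.

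The genotype comparison at single times gave no member past the threshold in limma. Among all genes, 0.00581% passed at 12 h, 0.00581% at 24 h and none (0%) at 48 h. An unadjusted p under 0.05 was found for 6 of the 67 members at 12 h, 0 at 24 h and 19 at 48 h, and for 8.41%, 1.15% and 22% of all genes at these times. By FDR in the authors' deposited table, 0 members were under 0.05 at 12 and 24 h. The core release genes had a median log2 difference of -0.14 at 12 h, -0.10 at 24 h and 0.11 at 48 h.

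At 12 h the lowest p were those of Syt5, Stx2 and Stx12. Syt5, a synaptotagmin of dense-core vesicles, had 3815, 4424 and 5080 normalized counts in WT and 5114, 5630 and 6290 in HET, a narrow separation (0.36 ± 0.12, limma adjusted p = 0.577). Stx2, a plasma membrane syntaxin, had 3447, 3733 and 3863 in WT and 3830, 4855 and 4532 in HET, which overlapped (0.25 ± 0.10, limma adjusted p = 0.577). Stx12, a syntaxin of recycling endosomes, had 6095, 7442 and 6881 in WT and 7573, 7620 and 8391 in HET, just apart (0.21 ± 0.08, limma adjusted p = 0.577).

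At 24 h no gene among those with the lowest p passed the test. Syt11 had 38796, 41268 and 39416 in WT and 37492, 36738 and 35939 in HET (-0.12 ± 0.07, limma adjusted p = 1), with the groups just apart. Syt1 (-0.29 ± 0.20) overlapped between genotypes, with an adjusted p of 1 in limma. At 48 h the lowest p were those of Sv2a, Stx17 and Unc13a. Sv2a had 1111, 845 and 1101 counts in WT and 1528, 1456 and 1264 in HET, without overlap (0.48 ± 0.12, limma adjusted p = 0.0579). Stx17 had 858, 881 and 779 in WT and 700, 694 and 563 in HET, all lower (-0.37 ± 0.11, limma adjusted p = 0.0772). Unc13a had 5654, 5112 and 6952 in WT and 7698, 7598 and 6862 in HET, where the top WT culture passed the lowest HET one (0.33 ± 0.10, limma adjusted p = 0.0795).

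At 48 h same-numbered cultures of both genotypes deviated together across all genes (correlations of 0.32, 0.21 and 0.46). The columns had been adjusted before deposit, partly along replicate number. The correlations therefore cannot show whether the numbers pair the cultures. A limma fit that blocks on the replicate number is given as an alternative. With the block 11 members passed, 4 higher and 7 lower in HET, against 12.3% of all genes (5.04% higher and 7.29% lower). The share among the members, 11 of 67, was near that of all genes. The higher ones included Syt1 (0.65, limma adjusted p = 0.0225 with the block), Syt7 (0.51, 0.0071) and Sv2a (0.48, 0.0276).

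Syt1 had 8748, 6167 and 10298 normalized counts in WT and 14845, 13341 and 10947 in HET at 48 h, without overlap. Syt7 had 7098, 6833 and 8981 against 10472, 8803 and 13529, with 1 HET culture inside the WT range. The lower ones with the block were Vamp5 (-0.84), Syt12 (-0.66), Rims4 (-0.63), Stxbp4 (-0.52), Stx17 (-0.37), Syt4 (-0.27) and Snap91 (-0.22), with adjusted p in limma from 0.00758 for Syt12 to 0.0498 for Snap91. Vamp5 had 228, 253 and 204 counts in WT and 147, 175 and 79.6 in HET. Fibroblast markers summed to 107 to 154 FPKM in WT and 87.4 to 155 in HET at 48 h, and macrophage markers to 35.7 to 73.7 and 21.2 to 31.4. Blood markers summed to 3.65 to 4.77 in WT and 5.59 to 63.6 in HET. The 13 DRG neuron markers summed to 6552 to 7058 FPKM in WT and 7117 to 7275 in HET, without overlap. Of these, 10 had a positive and 3 a negative estimate, with a median log2 difference of 0.13 and none called without the block. The part of all these markers in the genotype differences was not tested.

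By FDR in the authors' deposited table, 4 members were under 0.05 for this contrast, where 5.98% of all genes were (2.7% higher and 3.27% lower): Syt1 (log2 fold change 0.63), Syt7 (0.52), Sv2a (0.47) and Syt12 (-0.65). These 4 passed with the block here and none passed without it. Without WT 48 h replicate 3, the fit with no block called 4 members, all higher in HET, and without HET 48 h replicate 2 it called 1.

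**Figure D4:**
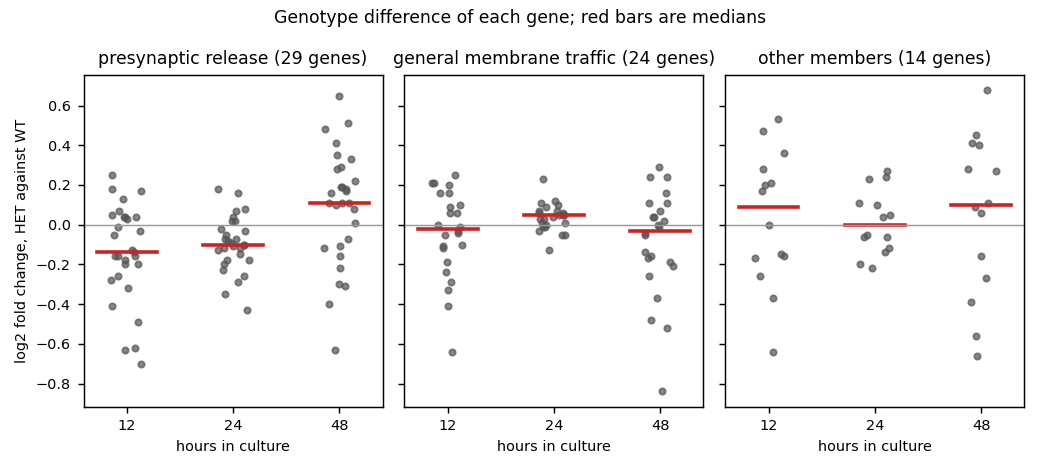
Log2 fold change of HET against WT for each of the 67 genes at 12, 24 and 48 h, in 3 sets of genes; each point is a gene and red bars are medians. The bar of the 29 core release genes lies at -0.14, -0.10 and 0.11 at the 3 times, and no point passed the threshold in limma without the block.

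Averaged over the 3 times, no member differed between genotypes in limma. Of all genes 0.0174% were called (0.0116% higher and 0.00581% lower). An unadjusted p under 0.05 was given to 12 of the 67 members and to 13.5% of all genes. The lowest p were those of Stx2 (0.18 ± 0.06, limma adjusted p = 0.31), Syt6 (-0.12 ± 0.05, 0.313) and Syt5 (0.18 ± 0.07, 0.313). Syt6, a relative of Syt3, had means in WT of 5860 ± 298, 6182 ± 268 and 5882 ± 154 normalized counts (SD, n = 3) at 12, 24 and 48 h and in HET of 5295 ± 416, 5930 ± 439 and 5283 ± 316. It was thus lower in HET by a small margin at each time. With the block, which pairs cultures of the same number, 1 member passed, Stx2 (limma adjusted p = 0.0484), against 3.22% of all genes, 1.22% being higher.

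Other genes of the release pathway were read from lists of genes that are not members, and each count stands against 47.1% of all genes called from 12 to 48 h in WT (30% higher and 17.1% lower). Of 20 synaptic vesicle membrane genes 2 were higher and 10 lower in WT at 48 h, with a median of -0.38. The GTPase Rab3a, which brings vesicles to the active zone, fell by 0.97 and synaptophysin (Syp), an abundant vesicle protein, by 0.60, while Slc17a6, the vesicular glutamate transporter of these neurons, rose by 0.48. Of 23 active zone scaffold genes 3 were higher and 10 lower, with a median of -0.25: the giant scaffolds Pclo and Bsn fell by 1.24 and 0.88 and the RIM-binding gene Rimbp2 rose by 0.87. WT 12 h replicate 5 stood apart for both scaffolds, with 13226 counts of Pclo and 14230 of Bsn, against 4981 and 4561, and 6779 and 6454, in replicates 1 and 2; its part in these falls was not tested.

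Of 26 genes of vesicle endocytosis 4 were higher and 12 lower (median -0.19), with the neuronal genes Sh3gl2, or endophilin A1, at -1.29, Amph at -1.01 and Dnm1, or dynamin 1, at -0.56, and the ubiquitous dynamin Dnm2 at 0.49. Of 21 SNARE recycling and release factors 5 were higher and 6 lower (median -0.04). Nsf, the ATPase that takes SNARE complexes apart, fell by 0.27 and Doc2b, a calcium sensor of spontaneous release, rose by 1.29. Of 14 dense-core vesicle genes, which serve peptide release, 5 were higher and 8 lower (median -0.39). The prohormone convertase Pcsk1 (0.98) and the amidating enzyme Pam (0.76) rose while Scg3 (-1.21) and Ptprn2 (-0.82) fell. In HET at 48 h these lists had, in the same order, 1 higher and 3 lower, 0 and 4, 2 and 2, 2 and 3, and 2 and 1, against 14.2% of all genes called. No gene of these lists passed between genotypes at 48 h in limma. With the block, again in that order, 4 were higher and 0 lower, 2 and 1, 4 and 0, 1 and 1, and 3 and 3, against 12.3% of all genes.

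Some rows cannot be told from overlapping or similar genes, since the sources used here do not state whether counting used the strand. Exons of Snap29, Snap47, Stx18, Stx4a, Syn1, Syn2 and Syn3 overlap those of a protein-coding gene on the opposite strand (Araf for Syn1, Timp4 for Syn2 and Timp3 for Syn3). Stxbp3a and Stxbp3b are close copies. Values of these genes, among them the fall of all 3 synapsins, are uncertain to that extent.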

How the data were processed

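The authors deposited 1 table of 17198 genes. Per the submitters' processing notes, CASAVA 1.8.2, edgeR and the mm10 build were used; aligner, counter and strand setting are not given in the sources used here. Per the file headers it holds the authors' normalized counts (a signal with no whole value), their FPKM, log2 fold changes, and p-values with FDR; a deposited score, the rank, was not used. Normalized totals run from 41509705 to 41509874, so depth is unknown. The logarithms of the plain adjusted columns span 15 of 17 possible dimensions: an undescribed step had removed 2 directions, which the fits do not count as lost degrees of freedom.

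The design called for a count test if the table held counts. It did not, so limma 3.58.1 (R 4.3.3) was fitted to log2(normalized count + 1). The fit had 1 coefficient per group, all 18 samples and a trended prior (12 residual and 5 prior degrees of freedom). It was tried on simulated data with independent noise in each culture. The columns here lack 2 directions, so that trial does not show the error rate in them. A filter, a mean of at least 1, removed 0 genes, so all 67 members were tested; 6 have a mean under 100. P-values were adjusted by Benjamini-Hochberg over all genes in each of 9 comparisons (threshold 0.05). Log2 changes on this scale understate those of low genes.

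Replicate numbers come from the sample titles, which do not say what they mark. Between genotypes at 48 h every pair of same-numbered cultures correlated at 0.21 or more. In each other comparison the lowest pair lay between -0.21 and 0.03, although all pairs were positive in some of them. Members and gene lists were chosen with earlier results of these data known. Genes given in every sample were the most abundant of each family and, in each comparison, the called members with the largest change and no overlap (at most 5 a direction), or the 3 lowest p where none passed. Others given in every sample, and genes of the pathway lists, were named after their values were seen. Results of 2 members are not reported here; counts and medians over the members include them, and the plots that name genes show the other 65. Alternatives were the block, the plain adjusted columns, quantile normalization, another pseudocount and other filters, the removed directions as covariates, only the groups compared, and leaving out each sample.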

Additional observations from a re-analysis of the deposited data

How the results depend on the processing

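With the replicate block, the number of members called was 11 for genotype at 48 h, 1 for genotype averaged over times, 15 from 12 to 24 h in WT, 28 from 12 to 24 h in HET and 22 from 12 to 48 h in HET, against 0, 0, 3, 17 and 10 without it (of all genes, the block called 9.43% from 12 to 24 h in WT, 26.2% from 12 to 24 h in HET and 30.8% from 12 to 48 h in HET); it stayed within 1.5 times of the unblocked count in the other 4 comparisons. Cultures were numbered 1, 2 and 5 at 12 and 24 h but 1, 2 and 3 at 48 h. With the block, replicate 3 therefore had no partner at another time and did not bear on the changes from 12 to 48 h. The blocked log2 changes from 12 to 48 h thus differ from the unblocked ones, and not only their calls. Correlations of same-numbered samples were 0.16, -0.20 and 0.14 for 12 and 24 h in WT and 0.36, 0.03 and 0.13 in HET. For 12 and 48 h they were 0.09 and 0.03 in WT and 0.17 and -0.08 in HET. Between genotypes they were 0.19, 0.03 and 0.16 at 12 h and 0.11, -0.21 and 0.26 at 24 h. The undescribed step had removed 2 directions beforehand, of which replicate number accounted for 48.4% and group for 19.5%. These correlations therefore cannot show whether the numbers pair the samples. Quantile normalization gave 1 call for genotype at 48 h and 11 from 12 to 24 h in HET. With the removed directions as covariates, or with only the groups compared, 6 members passed from 12 to 24 h in WT, and with only the groups compared 0 passed from 12 to 48 h in HET; the cause was not tested.

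Leaving out each sample in turn gave 0 to 4 calls for genotype at 48 h, 0 to 6 from 12 to 24 h in WT, 28 to 46 from 12 to 48 h in WT (28 without WT 48 h replicate 2), 6 to 21 from 12 to 24 h in HET and 0 to 14 from 12 to 48 h in HET. For genotype at 12 h, at 24 h and averaged over times, and for the interaction, every such count was 0. Shares of all genes are not given for the refits here and above, so their counts describe the members alone. No named member changed its direction: of their values under the alternatives 1088 stayed on their side of the threshold, 72 lost and 6 gained a call. Many of these fits could not change a direction. Leaving out a culture of a group not compared changes only the p-value, and so does the block between genotypes. Named members had also been picked for a large change or a low p. These counts therefore do not measure how firm the results are. No called member changed sign with the plain adjusted columns or quantile normalization, although the median log2 change of all genes from 12 to 48 h in WT was 0.11 in the normalized counts and 0.01 in the plain adjusted columns. DESeq2 was not run, because the values are not counts. With 3 cultures a group, an exact permutation test of a single gene cannot go below p = 0.1.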
